A study of Mus musculus with 12 samples.

Results

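Knockdown of cyclin A2 (Ccna2) was compared with no injection in mouse 2-cell embryos, in the 6 arrays of this experiment out of 12 in the series. The members are the 3 arrays titled as injected with the Ccna2 morpholino (Ccna2-MO) and the 3 arrays of uninjected embryos that carry the same replicate series, paired by number, and they were described over all 44937 probe sets that are not array controls. All embryos were wild type. They came from F1 (C57BL6xDBA/2) females of 3 to 5 weeks, which were superovulated with gonadotropins, 5 IU from pregnant mare serum and 48 hours later 5 IU of human chorionic gonadotropin (hCG), and were mated with wild type males. Embryos with 2 pronuclei were recovered 17 hours after hCG and pooled from 3 to 6 females. Part of each pool received cytoplasmic injection of Ccna2-MO at 0.6 mM as the labels give it (the study's methods name a higher concentration for this oligonucleotide), and the remainder was left uninjected and cultured in parallel at 10 embryos per drop. Each array holds RNA of 20 embryos, and the amount of 10 embryos went through 2 rounds of amplification. The controls received neither a needle nor an oligonucleotide, so the effects of injection and of blocking cyclin A2 cannot be told apart in these arrays. Embryos injected with a mismatch oligonucleotide were not analysed here. The study's summary of embryo numbers counts the pools of this knockdown's arrays as separate experiments, without dates. The p-values measure the spread between pools within groups, estimated over all 12 arrays of the series.

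Cyclin A2 binds and activates the cyclin-dependent kinases Cdk2 and Cdk1, and serves both DNA replication and entry into mitosis. A morpholino is a synthetic antisense oligonucleotide that blocks translation of its target mRNA without degrading it, so the amount of that mRNA need not fall. At the 2-cell stage the mouse embryo destroys much of the mRNA stored by the oocyte while the major wave of transcription from its own genome begins. Genes were therefore grouped into those of the cell cycle, those stored by the oocyte, those switched on at the 2-cell stage, and those of the cell's basic machinery. In pooled embryos, fewer cells that hold a transcript and less of it per cell cannot be told apart.

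Values are the authors' array intensities, and changes were tested with limma on log2(value + 16), which understates the change of dim genes. The 3 values given for a gene follow replicates 1, 2 and 3. No 2 of the 12 arrays held identical values. Over the brighter probe sets the 3 uninjected arrays correlated with each other at 0.929 to 0.941, and the Ccna2-MO arrays at 0.874 to 0.910. Ccna2-MO replicate 3 was closer to the uninjected arrays (0.912 to 0.924) than to Ccna2-MO replicates 1 and 2 (0.901 and 0.910), and the number of calls without it is given with the counts. The defining markers of oocyte and 2-cell embryo were present in both groups. Their summed values were 11541 to 14149 against 11288 to 12342 for 12 oocyte markers and 9571 to 11005 against 8721 to 10383 for 5 2-cell markers. Of 17 cumulus cell markers 10 had a mean under 16. Their sums were 924 to 1750 in Ccna2-MO pools and 1344 to 1716 in uninjected pools, and none passed the test on its brightest probe set, as was so for 13 sperm and 9 blood markers. The 11 oviduct markers summed to 555 to 1107 against 1174 to 1340, and the 15 trophectoderm and inner cell mass markers to 803 to 1360 against 1377 to 1893, so that both sums were lower in every Ccna2-MO pool, with no marker passing on its brightest probe set. Most of the oviduct sum was 1 gene, Epcam, at 817, 361 and 699 against 936, 899 and 1069. Of the 11 oviduct markers 4 lay above 0, and of the 15 others 8 did. Krt8, an epithelial keratin in both lists, was called lower on another probe set (log2 fold change -1.39, adjusted p = 0.0486, or 0.11 with the pairs as a block). The part of these differences in the results that follow was not tested.

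In Ccna2-MO embryos, transcripts stored by the oocyte such as Zar1, Lhx8 and Ube2a were higher. Ap3b1 and Sec61b were also higher, the only 2 of 174 membrane traffic genes that passed the test (1.15%, near the 0.93% of all genes). Several genes of the mitotic apparatus, Cenpe, Tacc3, Tpx2 and Cenpf, and the proliferation marker Mki67 were lower. On each gene's brightest probe set, 169 of 18163 genes (0.93%) passed at an adjusted p under 0.05, 84 of them higher (0.462%) and 85 lower (0.468%). The median log2 fold change was 1.24 among the higher genes and -1.48 among the lower ones, and 54 and 71 of them changed by more than 1 on the log2 scale. Over all probe sets 336 passed (0.748%), 152 higher and 184 lower. With the pairs as a block, 71 genes passed (0.391%), of which 60 were among the 169. Leaving out 1 array of the experiment gave 7 genes (without uninjected replicate 1) to 337 (without Ccna2-MO replicate 3). The calls rest on the spread shared over all 12 arrays: with only the 6 arrays of the experiment, 3 probe sets passed, and 4941 were at an unadjusted p under 0.05. In the lists that follow a gene is counted on its brightest probe set, and the counts are read against 0.93% of all genes called and, at an unadjusted p under 0.05, 8.22% higher and 8.5% lower. Most members of each list lay above the median brightness of the array, where calls were more frequent. Of 11417 such genes 1.42% were called, and 1217 were higher and 1357 lower at an unadjusted p under 0.05. The shares of all genes are thus a low standard for these lists.

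**Figure D1:**
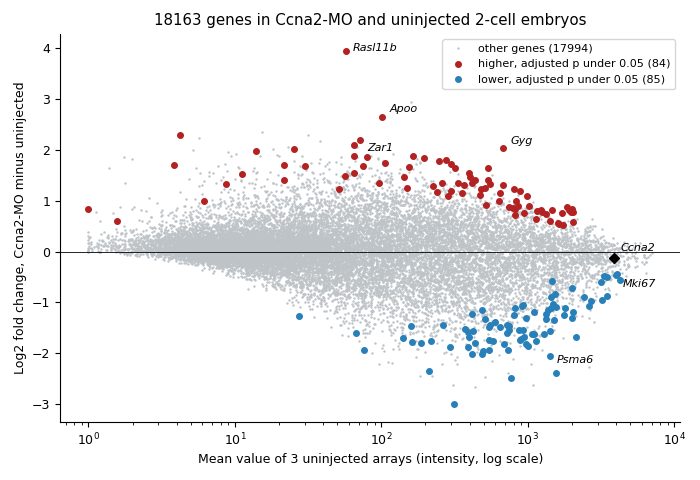
Log2 fold change (Ccna2-MO minus uninjected, log2(value + 16) scale) of 18163 genes against the mean value of the 3 uninjected arrays (intensity, log axis); each point is 1 gene. The 84 genes called higher spread over dim and bright genes, while the 85 called lower lie mostly above 100, and Ccna2 (black diamond) lies near 0. The added 16 bounds the fall of dim genes, and the horizontal axis is 1 side of the comparison.

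The plot of change against level shows where the calls fell. The level is the uninjected mean, which is 1 side of the comparison. Among 5311 genes whose uninjected mean was under 16, 8 were called higher and 0 lower. With 16 added before log2, the fall of such a gene is bounded while its rise is not, so the 2 directions are not alike there. Among 2236 genes with a mean of 500 to 2000, 35 were called higher (1.57%) and 48 lower (2.15%). At 2000 and over, 14 of 579 genes were lower and 2 higher. All 169 genes had the same sign in the 3 pairs and no overlap between the 2 groups of arrays, as their choice by this comparison favours; in all genes the share without overlap was 19.2% (9.89% with Ccna2-MO higher and 9.29% with it lower). For 104 of them the array holds more than 1 probe set. Another probe set was called in the same direction for 17 of these, and in the opposite direction for none. Probe sets that were not called could lie near 0 or beyond it. Log2 fold changes spanned -0.53 to 1.88 for Klhdc10, -2.48 to 0.09 for Prkcd and -1.63 to -0.09 for Idh2. They spanned -1.07 to 0.28 for Tpx2 and -1.82 to 0.63 for Ankrd11, which had 2 called lower. Those of Gyg (2.04 to 2.07) and Fancm (-1.54 to -1.31) lay close together. A value given for a gene is that of its brightest probe set unless stated.

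The mRNA of the target itself did not pass the test. Ccna2 read 3183, 3205 and 4398 in the Ccna2-MO pools and 3949, 3444 and 4222 in their uninjected pools, and the groups overlapped (log2 fold change -0.12, SE 0.14, adjusted p = 0.762). This measurement does not show whether cyclin A2 protein was reduced. None of 25 cyclins and none of 42 genes for cyclin-dependent kinases, their inhibitors and their activating phosphatases passed, while Ccny and Cdk12 each had 1 dimmer probe set called, higher and lower in that order. Cdk1, the kinase of mitotic entry, read 1563, 1384 and 4123 against 2019.7, 2007 and 3557, and replicate 3 was the highest in both groups. Cdk2 read 139, 167 and 142 against 151, 165 and 248, with overlap. The G1 cyclin Ccne1 read 3055, 2084 and 3072 against 2102, 2483 and 3192, also with overlap. Ccne2 read 30.1, 65.2 and 79.3 against 123, 91 and 115, without overlap, and missed the threshold (log2 fold change -0.82, SE 0.30, adjusted p = 0.238). Ccnd1 read 161, 34.4 and 51.2 against 206, 107 and 228, with overlap (adjusted p = 0.296). The remaining cyclins A, B and D that were measured, Ccna1, Ccnb2, Ccnb3, Ccnd2 and Ccnd3, had adjusted p-values of 0.587 to 0.994. Cdk4 and Cdk6 were at 0.765 and 0.732.

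Of 65 oocyte and maternal-effect genes, 4 rose (6.15%) and 0 fell. Without Ccna2-MO replicate 2 or uninjected replicate 1 the number was 0, and without Ccna2-MO replicate 3 it was 4. At an unadjusted p under 0.05, 18 were higher (27.7%) and 3 lower (4.62%), where 8.22% and 8.5% of all genes were. In all, 50 of the 65 lay above 0, and their median log2 fold change was 0.27 (0.35, 0.21 and 0.23 in pairs 1, 2 and 3) beside 0.03 for all genes. The summed values of the list were 87708 to 103625 in Ccna2-MO pools and 78950 to 88322 in uninjected pools, with overlap. Zar1, a maternal RNA-binding protein needed for the oocyte-to-embryo transition, read 196, 551 and 430.2 in Ccna2-MO pools and 36.1, 73.3 and 105 in uninjected pools. The lowest Ccna2-MO value was thus above the highest uninjected one (log2 fold change 2.19, SE 0.39, adjusted p = 0.0328). Lhx8, a LIM homeobox transcription factor of the growing oocyte, read 916, 1329 and 940.4 against 579, 373 and 303 (log2 fold change 1.34, SE 0.24, adjusted p = 0.0345, or 0.0634 with the pairs as a block). Ube2a, the ubiquitin-conjugating enzyme also known as Hr6a, read 836, 1090.3 and 1082 against 208, 371 and 379.5 (log2 fold change 1.64, SE 0.24, adjusted p = 0.0164). The groups were separate for both genes. Rnf114, a ubiquitin ligase, read 3162, 3960.3 and 3102 against 1678, 2089.5 and 1793 (log2 fold change 0.87, SE 0.17, adjusted p = 0.0386, or 0.0616 with the pairs as a block).

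Other oocyte genes had values on the same side without passing, and are named here for their size after the values were seen. Nobox, a homeobox factor of the oocyte, averaged 475 against 172 (log2 fold change 1.40, SE 0.46, adjusted p = 0.183). The 3 measured members of the Nlrp9 family, Nlrp9a, Nlrp9b and Nlrp9c, had log2 fold changes of 0.81, 1.02 and 0.88 with adjusted p-values of 0.276, 0.107 and 0.0754. Ybx2, a germ cell RNA-binding protein that stabilises stored mRNA, averaged 1890.5 against 1327 (adjusted p = 0.0949). Not all stored transcripts were on that side. The growth factor gene Bmp15 read 3081, 3506 and 2464 against 3281, 3558 and 2774, and Oosp1 read 4399.6, 4735 and 4202 against 4379, 4508 and 4428, with overlap in both. Pms2, a mismatch repair gene, averaged 282 against 521 (log2 fold change -0.90, adjusted p = 0.151). Among 65 genes of maternal mRNA decay, 1 rose, the deadenylase subunit Cnot7, at 1542, 1946 and 1868 against 1119, 1179 and 1119 (log2 fold change 0.63, SE 0.12, adjusted p = 0.0416, or 0.0642 with the pairs as a block), and the median was 0.03. Cnot7 read 1501 to 1697 in the uninjected pools of the Oct4 experiment, which overlapped the Ccna2-MO values.

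Of 25 measured genes that are switched on at the 2-cell stage, 1 rose (the heat shock gene Hspa1a) and 0 fell, and 14 lay above 0 with a median of 0.05. Zfp352, one of the markers of that stage, read 3768, 3893 and 3484 against 2541, 3213 and 2278 and was higher in every Ccna2-MO pool without passing (log2 fold change 0.48, SE 0.14, adjusted p = 0.127). Eif1a read 349, 139 and 501 against 472, 772 and 771, with overlap (log2 fold change -1.12, adjusted p = 0.194). Over the whole list 6 genes were higher and 5 lower at a p under 0.05 before adjustment, Hspa1a and Eif1a among them.

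**Figure D2:**
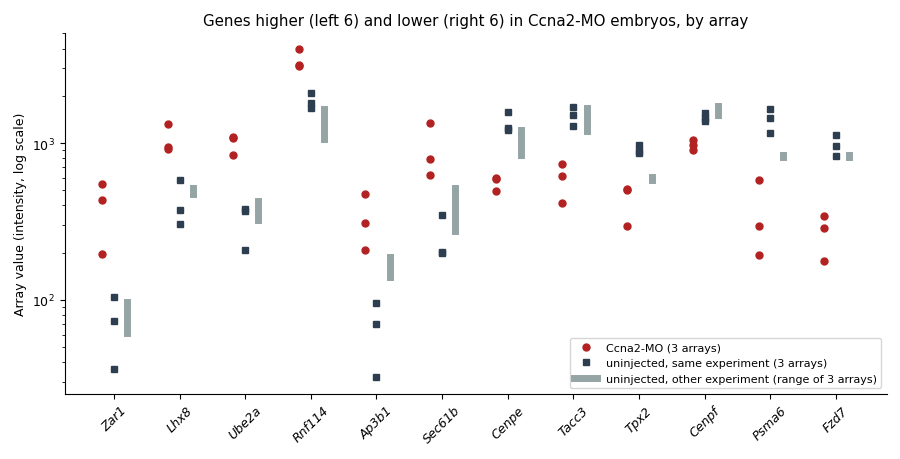
Array values (intensity, log axis) of 6 genes called higher and 6 called lower: circles are the 3 Ccna2-MO arrays, squares the 3 uninjected arrays of the same experiment, and bars the range of the 3 uninjected arrays of the Oct4 experiment. In each gene the circles do not overlap the squares or the bar.

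Membrane traffic genes also lay mostly above 0, as did immediate early genes (21 of 29) and stress genes (36 of 57). Of 174 genes 2 rose and 0 fell, a share called of 1.15%, near the 0.93% of all genes. No member was called without Ccna2-MO replicate 2 or any single uninjected array. At a p under 0.05 before adjustment 34 were higher (19.5%, where 8.22% of all genes were) and 13 lower (7.47%, where 8.5% were), and 117 lay above 0, with a median of 0.19 (0.11, 0.26 and 0.28 in the 3 pairs). Their summed values were 94294 to 96992 in Ccna2-MO pools and 80277 to 85686 in uninjected pools, without overlap. Ap3b1, a subunit of the AP-3 adaptor that sorts cargo to lysosomes and related organelles, read 309, 476 and 208 against 69.7, 32.1 and 94.9 (log2 fold change 2.10, SE 0.40, adjusted p = 0.0373, or 0.0758 with the pairs as a block). Sec61b, part of the channel that takes new proteins into the endoplasmic reticulum, read 629, 1334 and 789 against 201, 347 and 199.6 (log2 fold change 1.79, SE 0.35, adjusted p = 0.0419). The same genes read 139 to 189 and 274 to 516 in the uninjected pools of the Oct4 experiment. Both ranges were below every Ccna2-MO value. The sorting nexin Snx9, which missed the threshold, averaged 2146 against 1304 (adjusted p = 0.0532), and Snap23, a membrane fusion protein, averaged 791 against 1275 on the other side (adjusted p = 0.0604).

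Of 94 genes of the mitotic spindle, kinetochore and checkpoint, 4 fell and 1 rose (5.32% called, against 0.93% of all genes). None was called without uninjected replicate 1, and 6 lower and 1 higher without Ccna2-MO replicate 3. At a p under 0.05 before adjustment 27 were lower (28.7%, where 8.5% of all genes were) and 9 higher (9.57%, where 8.22% were). In all, 64 lay below 0 and 30 above, and the median was -0.30 (-0.17, -0.45 and -0.18 in the 3 pairs). The summed value of the list was 53311 to 60095 in Ccna2-MO pools and 64460 to 71342 in uninjected pools, without overlap. Sums were also lower without overlap for the lists of damage response and repair, chromatin, nucleotide and folate, and splicing genes. Cenpe, a kinesin motor of the kinetochore, read 595, 593 and 496 against 1571, 1202 and 1244 (log2 fold change -1.22, SE 0.17, adjusted p = 0.0142). Tacc3, which stabilises spindle microtubules, read 739, 415 and 619 against 1517, 1283 and 1702 (log2 fold change -1.35, SE 0.23, adjusted p = 0.0302). Both were separate between groups. Tpx2, a spindle assembly factor that activates Aurora A, read 501, 513 and 297 against 973, 893 and 862 (log2 fold change -1.07, SE 0.21, adjusted p = 0.0423, or 0.0653 with the pairs as a block). Cenpf, a kinetochore protein, read 965, 1044 and 908 against 1558, 1436 and 1385 (log2 fold change -0.58, SE 0.12, adjusted p = 0.0438, or 0.0753 with the pairs as a block), and it was called in none of the 6 fits that left out 1 array of the experiment. Nek7, a kinase of centrosomes and spindles, went the other way at 717, 575 and 337 against 134, 130.0 and 199.5 (log2 fold change 1.67, SE 0.30, adjusted p = 0.0334, or 0.0758 with the pairs as a block).

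A further 5 mitotic genes were called on a probe set that was not their brightest, 4 lower and 1 higher. Kif22, a chromosome-binding kinesin, was lower on 2 (log2 fold change -1.90 and -1.65, adjusted p = 0.00776 and 0.00858). Aspm, a protein of spindle poles, was lower on 3 (-1.29 to -1.99, adjusted p = 0.0226 to 0.0334, each 0.051 with the pairs as a block). Incenp, of the chromosomal passenger complex, was lower on 1 (-1.62, adjusted p = 0.0253). On the brightest probe set the log2 fold change was smaller, at -0.52 for Kif22, -0.23 for Aspm and -0.84 for Incenp (adjusted p = 0.38, 0.509 and 0.337). Several others were below 0 by more than 1 on the log2 scale without passing on their brightest probe set, and are named after their values were seen. The spindle motor Kif11 averaged 269 against 801 (log2 fold change -1.50, SE 0.32, adjusted p = 0.055), and was called on a dimmer probe set (-2.01, adjusted p = 0.0388, or 0.0543 with the pairs as a block). Aurkb, the kinase of the chromosomal passenger complex, averaged 163 against 456 (log2 fold change -1.41, SE 0.36, adjusted p = 0.0908). The checkpoint protein gene Bub3 averaged 168 against 408 (adjusted p = 0.0718). Cenpn and Ttk were above 0, at 1.31 and 1.01 (adjusted p = 0.0562 and 0.18), and a dimmer probe set of Cenpn was called higher (1.33, adjusted p = 0.0438, or 0.0739 with the pairs as a block). Outside the list, Mki67, which coats mitotic chromosomes, fell, with 2595, 3169 and 3004 against 4006, 3728 and 4265 (log2 fold change -0.45, SE 0.09, adjusted p = 0.0481, or 0.0739 with the pairs as a block). Cdca2, a phosphatase regulator that acts on mitotic chromatin, read 209, 188 and 269.9 against 697, 623 and 618 (log2 fold change -1.49, SE 0.25, adjusted p = 0.028). Knstrn, a spindle adaptor, rose, at 2018, 2235 and 2308 against 1315, 1452 and 1513 (log2 fold change 0.61, SE 0.12, adjusted p = 0.0423, or 0.0721 with the pairs as a block). These 3 genes were also chosen after their values were seen. Among 30 genes of the anaphase-promoting complex and SCF, 0 passed, 22 lay below 0 and the median was -0.19, or 0.01 against the uninjected pools of the Oct4 experiment. None of 28 cohesin and condensin genes and none of 22 E2F, retinoblastoma and DREAM genes passed.

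Promoters were read because many mitotic genes carry CCAAT boxes near their start sites. RefSeq promoters (GRCm38.p6, 250 bases before to 50 after each start) were at hand for 73 of the 85 lower genes, 74 of the 84 higher ones and 83 of the 94 mitotic genes. CCAAT, on either strand in the 250 bases before the start, was in 36 of the 73 (49.3%) and 29 of the 74 (39.2%), in 47 of the 83 (56.6%), and in 5678 of 14426 measured genes (39.4%). TTTGAA, the core of the cell cycle genes homology region, was in 11 of 73 (15.1%), 8 of 74 (10.8%) and 19 of 83 (22.9%), against 14.1% of all. The mitotic list was compiled by function, so its shares do not bear on the change with Ccna2-MO. None of these shares was tested, and a match is a run of letters, not a site in use. Of the 4 mitotic genes that fell, Cenpe and Cenpf held CCAAT in this window, and their matches are shown as stretches of 30 bases with the match in capitals. The Cenpe match begins 12 bases before the start (chr3:135212539-135212568, plus strand). The Cenpf matches begin 132 and 71 bases before the start (chr1:189688201-189688230 and chr1:189688140-189688169, minus strand).
Cenpe: acgctgcgccacCCAATccgctgcaacctt
Cenpf, 132 bases before the start: cgtccaaaagggCCAATcagaggcggctca
Cenpf, 71 bases before the start: ctctcgccatggCCAATgggcgtggaggct

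Of 62 DNA replication genes 1 fell and 0 rose (1.61%, against 0.93% of all genes and 1.42% of the brighter ones). At a p under 0.05 before adjustment 13 were lower (21%) and 4 higher (6.45%), and the median was -0.12. Fen1, the nuclease that trims lagging strand flaps, read 462, 283 and 399 against 822, 831 and 814 (log2 fold change -1.11, SE 0.22, adjusted p = 0.0442, or 0.0611 with the pairs as a block). The helicase subunit Mcm7 averaged 417 against 919 without passing (log2 fold change -1.11, adjusted p = 0.064). Of 85 damage response and repair genes 1 rose and 1 fell (2.35%). Chek1, a checkpoint kinase that restrains mitotic entry, read 1642, 1865 and 1351 against 789.8, 893 and 889 (log2 fold change 0.89, SE 0.15, adjusted p = 0.0307, or 0.0574 with the pairs as a block). Fancm, a DNA translocase of the Fanconi anaemia pathway, read 325, 275 and 276 against 956, 883 and 793 (log2 fold change -1.54, SE 0.19, adjusted p = 0.00917). Terf2ip, a telomere protein outside the lists, fell, with 128, 109 and 96.1 against 346, 519 and 330.2 (log2 fold change -1.69, SE 0.24, adjusted p = 0.0136). Of 27 p53 target genes 1 rose, the kinase gene Plk2, at 209.5, 440.4 and 298 against 135, 38.6 and 65.4 (log2 fold change 1.86, SE 0.37, adjusted p = 0.0442, or 0.0956 with the pairs as a block). None of 43 apoptosis regulators passed. Of 57 stress genes 1 rose, again Hspa1a, which read 547, 563 and 593 against 178, 257 and 240.2 (log2 fold change 1.29, SE 0.21, adjusted p = 0.0272, or 0.0616 with the pairs as a block), and none of 29 immediate early genes passed.

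Cytosolic ribosomal protein genes were mostly below 0 against the paired controls. Of 46 measured, 40 lay below 0, 6 were lower and 0 higher at a p under 0.05 before adjustment, and 1 fell. The median was -0.31 (-0.14, -0.50 and -0.24 in the 3 pairs). Against the uninjected pools of the Oct4 experiment the same median was 0.00. Rps3, a protein of the small subunit, read 1236, 1338 and 1555 against 2584, 2433 and 3136 (log2 fold change -0.97, SE 0.19, adjusted p = 0.0382), and 1511 to 2140.0 in the Oct4 experiment's uninjected pools, which overlapped the Ccna2-MO values. Among 43 translation initiation factors 1 rose, Eif4e3 (log2 fold change 0.82, SE 0.15, adjusted p = 0.0347, or 0.0611 with the pairs as a block), whose values overlapped those pools too. Of 112 splicing genes 3 fell and 1 rose (3.57%), and at a p under 0.05 before adjustment 27 were lower (24.1%, where 8.5% of all genes were) and 7 higher (6.25%, where 8.22% were), with a median of -0.12. None of the 3 was called without Ccna2-MO replicate 2 or any single uninjected array. Hnrnpa2b1, an RNA-binding protein of splicing and transport, read 2329, 2357 and 2365 against 3626, 2992 and 3309 (log2 fold change -0.49, SE 0.10, adjusted p = 0.0438, or 0.0645 with the pairs as a block). Rbm5, a splicing regulator, read 945, 714 and 921 against 1665, 1552 and 1412 (log2 fold change -0.84, SE 0.17, adjusted p = 0.0477, or 0.0623 with the pairs as a block). Rrp12, a factor of ribosome assembly and export, read 171, 60.0 and 172 against 455, 383 and 797 (log2 fold change -1.94, SE 0.40, adjusted p = 0.0479, or 0.0511 with the pairs as a block).

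The general transcription machinery was divided. Of 100 genes for RNA polymerase II, its general factors and Mediator, 3 rose and 1 fell, and the median was -0.06. Gtf2b, which recruits the polymerase to promoters, read 953, 1437 and 1359 against 425, 572 and 544 (log2 fold change 1.24, SE 0.20, adjusted p = 0.0261). The Mediator subunit Med22 read 650.4, 712 and 638 against 196, 219 and 364 (log2 fold change 1.36, SE 0.26, adjusted p = 0.0386, or 0.0787 with the pairs as a block). Another Mediator subunit, Med30, read 874, 1415 and 913 against 511, 439 and 467 (log2 fold change 1.12, SE 0.22, adjusted p = 0.0424, or 0.0707 with the pairs as a block). The elongation factor gene Ell2 fell, with 299, 185 and 393 against 939.5, 968 and 901 (log2 fold change -1.69, SE 0.28, adjusted p = 0.0263). All 4 were separate between groups. Of 181 chromatin genes 5 fell and 1 rose (3.31%, against 0.93% of all genes), and at a p under 0.05 before adjustment 35 were lower (19.3%) and 16 higher (8.84%). The number that fell was 0 without uninjected replicate 1 and 9 without Ccna2-MO replicate 3. Chd1, a remodeller of transcribed chromatin, read 695, 648 and 781 against 1619, 1210.1 and 1604 (log2 fold change -1.04, SE 0.21, adjusted p = 0.0442, or 0.0606 with the pairs as a block). Smarca5, the ISWI ATPase, read 2753, 2920.0 and 3363 against 4335, 3865 and 4056 (log2 fold change -0.44, SE 0.09, adjusted p = 0.0491, or 0.0758 with the pairs as a block). It read 3082 to 3305 in the Oct4 experiment's uninjected pools, within the Ccna2-MO range. Ankrd11, a chromatin regulator outside the list that was called in all 6 fits that left out 1 array of the experiment, read 194, 140.3 and 146 against 636, 558 and 541 (log2 fold change -1.76, SE 0.21, adjusted p = 0.00776). Among 336 genes named Zfp, 1 rose and 1 fell. The repressor gene Zfp217 read 483, 489.8 and 445 against 1218, 939 and 1171 (log2 fold change -1.20, SE 0.16, adjusted p = 0.0112).

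Genes listed under the citric acid cycle and respiratory chain changed in both directions, with 3 of 95 higher, 2 lower and a median of 0.01. Cs, citrate synthase, read 1951, 2419.7 and 2317 against 1303, 1217 and 1477 (log2 fold change 0.73, SE 0.14, adjusted p = 0.0371, or 0.0611 with the pairs as a block). Fh1, fumarate hydratase, read 185, 210.1 and 259 against 46, 78.3 and 70.5 (log2 fold change 1.54, SE 0.29, adjusted p = 0.0373, or 0.0616 with the pairs as a block). Me1, the cytosolic malic enzyme, was counted in this list though it is part of neither pathway. Its values were 998, 923 and 687 against 272, 373 and 349 (log2 fold change 1.34, SE 0.20, adjusted p = 0.0182, or 0.051 with the pairs as a block). The mitochondrial isocitrate dehydrogenase gene Idh2 was lower, with 371, 334 and 313 against 975, 1333 and 979 (log2 fold change -1.63, SE 0.22, adjusted p = 0.0112). Ndufc1, a subunit of respiratory complex I, read 306, 283 and 392 against 1048, 788 and 1349 (log2 fold change -1.63, SE 0.29, adjusted p = 0.0334). Among 111 genes of mitochondrial import, membrane and ribosome, 1 rose and 1 fell. Apoo, a protein of the mitochondrial inner membrane, rose. Timm17a, part of the inner membrane import channel, fell, with 1472, 1125 and 1303 against 2541, 2448 and 2311 (log2 fold change -0.90, SE 0.16, adjusted p = 0.0324). Of 63 nucleotide and folate genes 2 rose, Mthfd2 and Tk2 (the latter at adjusted p = 0.0226, or 0.051 with the pairs as a block), and of 80 glycolysis and glycogen genes 1 rose, Gyg, which primes glycogen synthesis. Of 347 solute carriers 1 rose and 2 fell. Slc25a15, the mitochondrial ornithine carrier, read 2146, 2193 and 1421 against 801, 1031 and 1206 (log2 fold change 0.90, SE 0.18, adjusted p = 0.0469, or 0.0951 with the pairs as a block) and 1444 to 1649 in the Oct4 experiment's uninjected pools, which overlapped, and the neutral amino acid carrier Slc1a4 read 61, 35.6 and 114 against 177, 339 and 362 (log2 fold change -1.88, SE 0.39, adjusted p = 0.0479, or 0.0611 with the pairs as a block).

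Genes with large changes outside these lists included several of signalling and of the cytoskeleton. Prkcd, protein kinase C delta, read 236, 93.3 and 81.7 against 910.3, 661 and 733 (log2 fold change -2.48, SE 0.49, adjusted p = 0.0423, or 0.066 with the pairs as a block). Itpkc, an inositol trisphosphate kinase, read 117, 53.1 and 106 against 428, 494 and 318 (log2 fold change -2.03, SE 0.41, adjusted p = 0.0474, or 0.0816 with the pairs as a block). In the uninjected pools of the Oct4 experiment it read 75.4 to 214, which overlapped the Ccna2-MO values. Plcd4, a phospholipase C, read 85.7, 50.6 and 173 against 437, 325 and 404 (log2 fold change -1.89, SE 0.35, adjusted p = 0.0367, or 0.056 with the pairs as a block). All of these were lower in each pair. Psma6, a subunit of the proteasome core, read 297, 193 and 579 against 1149.9, 1450.2 and 1654 (log2 fold change -2.06, SE 0.34, adjusted p = 0.0263). Bbs2, a subunit of the BBSome of cilia, read 119, 61.2 and 193 against 500.4, 586 and 389.9 (log2 fold change -1.95, SE 0.37, adjusted p = 0.0373, or 0.0721 with the pairs as a block). Trmt6, a tRNA methyltransferase subunit, read 109, 169.8 and 262 against 858, 902 and 429 (log2 fold change -1.93, SE 0.34, adjusted p = 0.0328, or 0.0721 with the pairs as a block). Sec1, a fucosyltransferase gene, read 25.3, 6.18 and 65 against 209, 125 and 296 (log2 fold change -2.35, SE 0.47, adjusted p = 0.0423) and 51.1 to 119.7 in the Oct4 experiment's uninjected pools, again with overlap.

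Among the higher genes, Ninj1, an adhesion and membrane rupture protein, read 769, 910.4 and 1338 against 260.1, 211 and 353 (log2 fold change 1.80, SE 0.30, adjusted p = 0.0269). Csrp1, a LIM protein of the cytoskeleton, read 707, 1082 and 452 against 118, 186 and 282 (log2 fold change 1.84, SE 0.38, adjusted p = 0.0481, or 0.0758 with the pairs as a block). Ehf, an ETS transcription factor, read 289, 605 and 324 against 118, 82.3 and 116 (log2 fold change 1.74, SE 0.31, adjusted p = 0.0334, or 0.0781 with the pairs as a block). Each was higher in every Ccna2-MO pool, though Csrp1 and Ehf overlapped the uninjected pools of the Oct4 experiment. Ufl1, the ligase of the ubiquitin-like protein UFM1, read 83.1, 152 and 192 against 14.8, 8.83 and 52.1 (log2 fold change 2.02, SE 0.40, adjusted p = 0.0438, or 0.051 with the pairs as a block). Pstpip1, a cytoskeletal adaptor, read 133, 150.2 and 47.7 against 18.9, 12.5 and 10.3 (log2 fold change 1.97, SE 0.40, adjusted p = 0.0438, or 0.056 with the pairs as a block). Prr5l, a partner of the kinase complex mTORC2, read 247, 200.2 and 369 against 33.3, 102 and 59.9 (log2 fold change 1.88, SE 0.38, adjusted p = 0.0442, or 0.0807 with the pairs as a block). Klhdc10, a substrate adaptor of a ubiquitin ligase, read 526, 816 and 634 against 152, 172 and 169 (log2 fold change 1.88, SE 0.24, adjusted p = 0.0112). Chsy1, a chondroitin synthase, read 3607, 3856 and 3309.8 against 1778, 2224 and 1985 (log2 fold change 0.85, SE 0.11, adjusted p = 0.0112). Llgl1, a cell polarity protein, read 1430.1, 1104 and 1765 against 527, 632 and 506 (log2 fold change 1.32, SE 0.18, adjusted p = 0.0112). These last 3 genes were called in 5 of the 6 fits that left out 1 array of the experiment.

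**Figure D3:**
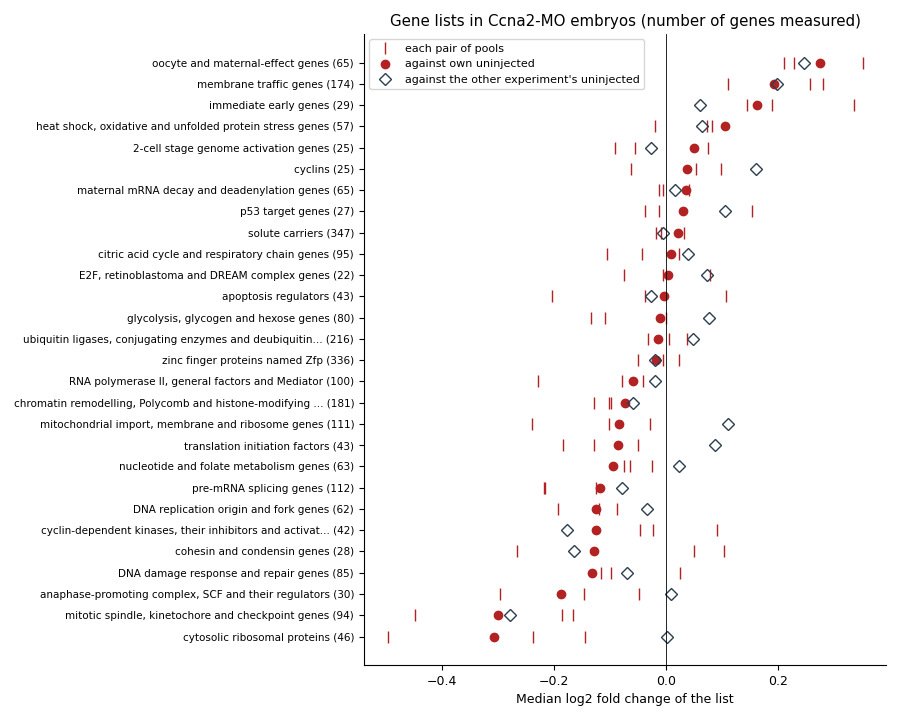
Median log2 fold change of 28 gene lists in Ccna2-MO embryos (number of genes measured in parentheses): filled circles against the paired uninjected arrays, ticks for each of the 3 pairs, open diamonds against the uninjected arrays of the Oct4 experiment. Oocyte and maternal-effect genes (0.27 and 0.25) and membrane traffic genes (0.19 and 0.20) lie to the right and mitotic genes (-0.30 and -0.28) to the left with both control groups, while ribosomal protein genes lie at -0.31 with one and 0.00 with the other.

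The uninjected pools of the Oct4 experiment gave a separate set of control embryos, and the comparison with them was chosen after the data were seen. Both comparisons share the Ccna2-MO arrays. Measured against them, 199 genes passed (1.1%), 117 higher (0.644%) and 82 lower (0.451%), and 54 of the 169 genes passed in the same direction. The 169 were chosen on these same Ccna2-MO arrays, so their values against the other pools are a description. The median log2 fold change of the 84 was 0.88 and that of the 85 was -1.07. As the plot of list medians shows, the median was 0.25 for the oocyte list, 0.20 for the membrane traffic list and -0.28 for the mitotic list. Of the 28 lists 9 had medians on opposite sides of 0 with the 2 control groups, among them those of mitochondrial import (-0.08 and 0.11), initiation factors (-0.09 and 0.09), the anaphase-promoting complex and SCF (-0.19 and 0.01) and ribosomal proteins.

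In 28 of the 169 genes the Ccna2-MO values overlapped those of the Oct4 experiment's uninjected pools, and in 3 the change was on the other side of 0. Among all genes, the Ccna2-MO values lay above all of those pools in 10.7% and below all of them in 11.8%. Faap24, a Fanconi anaemia protein, read 80.0 to 141 in Ccna2-MO pools, 268 to 461 in the paired uninjected pools and 77.3 to 133 in the others, and its log2 fold change was -1.59 against the former and 0.26 against the latter. Timm17a read 1105 to 1480.2 in the latter pools, against 1125 to 1472 in the Ccna2-MO pools (-0.02 on the log2 scale). The repressor gene Rest read 2290.3 to 2527 with Ccna2-MO, 3353 to 3526 in the paired controls and 2302 to 2548 in the others. Ing3, a chromatin reader, read 615 to 745, 200.2 to 400.2 and 589 to 680.1 in that order. For these genes it was the paired uninjected pools that stood apart from the other 2 groups. Between the 2 uninjected groups 21 genes differed (0.116%), 1 of which, Katnbl1, is among the 169.

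**Figure D4:**
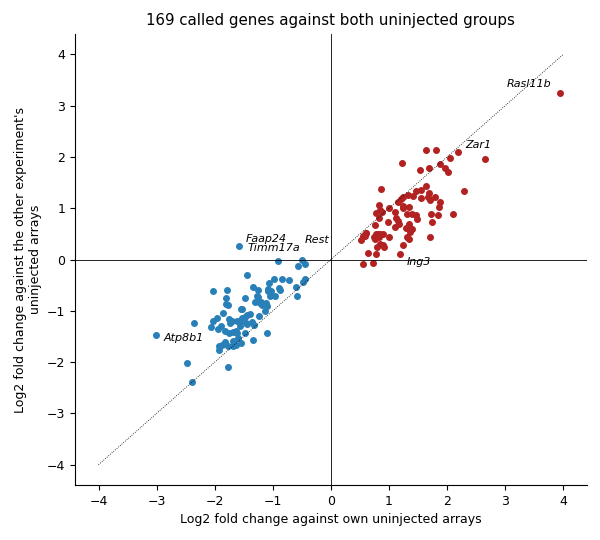
Log2 fold change of the 169 called genes against the paired uninjected arrays (horizontal) and against the uninjected arrays of the Oct4 experiment (vertical); each point is 1 gene, red for higher and blue for lower, and the dotted line marks equal change. The axes share the 3 Ccna2-MO arrays; Faap24, Timm17a, Rest and Ing3 lie near 0 on the vertical axis.

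Embryos injected with the Oct4 morpholino at the same stated concentration gave 17 called genes (0.0936%) against their own uninjected pools. Of the 84 genes higher with Ccna2-MO, 76 lay above 0 with Oct4-MO (median 0.37), and of the 85 lower genes 75 lay below 0 (median -0.50), whereas 51.5% of all genes lay above 0 with Oct4-MO. These comparisons share no array. Zar1 had a log2 fold change of 1.85 (SE 0.39) with Oct4-MO beside 2.19 with Ccna2-MO. Plk2 had 1.51 beside 1.86, and Prr5l 2.15 beside 1.88. Others were near 0 with Oct4-MO. Cdca2 had 0.05 beside -1.49, Me1 0.04 beside 1.34, and Ndufc1 0.02 beside -1.63. The difference between the knockdowns was tested for every probe set, and 1 of 44937 passed (0.00223%), with 2988 at an unadjusted p under 0.05. Thus none of the differences just given passed that test. The genes with the smallest p on their brightest probe set were Sfi1, Tex261, Trim26, Abcc10 and Pfdn4, and none passed. Pfdn4, a prefoldin subunit, read 836, 1351 and 1275 against 367, 417 and 417 with Ccna2-MO (log2 fold change 1.46, SE 0.21, adjusted p = 0.0152) and had a log2 fold change of -0.29 with Oct4-MO.

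**Figure D5:**
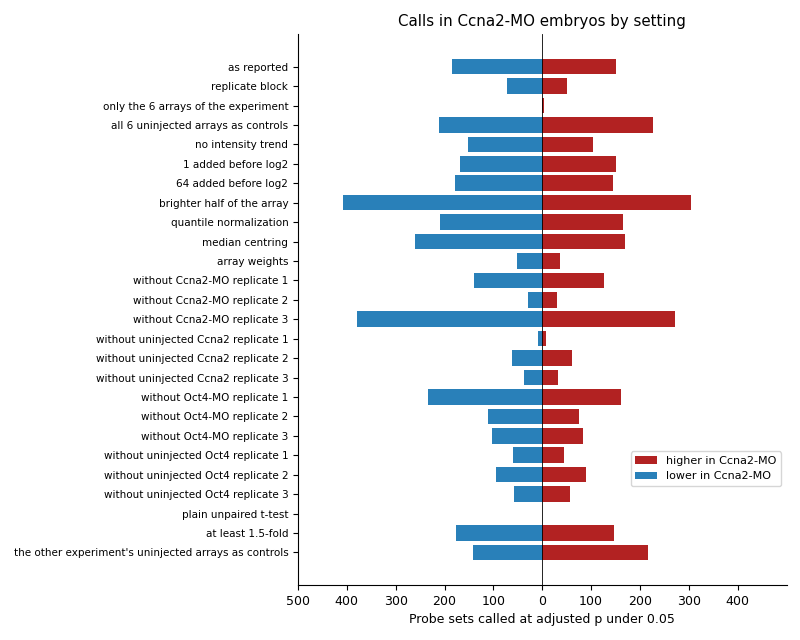
Probe sets called higher (right) and lower (left) in Ccna2-MO embryos at an adjusted p under 0.05, as reported and under each alternative; bars start at 0. The count was 336 as reported, 652 without Ccna2-MO replicate 3 and 17 without uninjected replicate 1.

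The number of calls depended on single arrays, as the plot of calls by setting shows. Without Ccna2-MO replicate 1, 2 or 3 it was 266, 60 or 652 probe sets, and without uninjected replicate 1, 2 or 3 it was 17, 122 or 71. Of the 169 genes, 5 were called in all 6 of these fits, 16 in 5, 3 in 4, 20 in 3, 43 in 2, 70 in 1 and 12 in 0. No gene among the 169 changed sign in any of the 6, which the lack of overlap between their 2 groups of arrays fixes in advance. Rasl11b, Apoo, Gyg, Ankrd11 and Srpk2 were the 5 called in all. Rasl11b, a small GTPase, read 1175, 1162 and 866 against 28.6, 67.3 and 76.1 (log2 fold change 3.94, SE 0.39, adjusted p = 0.00282). Srpk2, a kinase of splicing factors, read 1999.9, 2326 and 2092 against 1149, 875 and 961 (log2 fold change 1.10, SE 0.14, adjusted p = 0.0103). Leaving out any single array of the experiment kept the median of the oocyte list between 0.21 and 0.36, that of the membrane traffic list between 0.18 and 0.25, and that of the mitotic list between -0.36 and -0.21.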

How the data were processed

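RNA of pooled 2-cell embryos was measured on Affymetrix Mouse Genome 430 2.0 arrays. The deposited values are intensities that the authors normalized with dChip; no version of it is given in the sources used here. They were taken as log2(value + 16), 64 control probe sets were left out, and 44937 were tested. GEO's platform annotation named 1 gene for 34849 of these, several for 928 and none for 9160, and the brightest probe set stood for each of 18163 genes. The main test was limma 3.58.1 (R 4.3.3; lmFit, and eBayes with an intensity trend) with 1 mean for each of 4 groups of 3 arrays, 8 residual degrees of freedom and Benjamini-Hochberg adjustment at 0.05; scripts were tested on simulated data. An exact permutation test of 3 against 3 arrays cannot go below p = 0.1 (two-sided). Replicate numbers pair the pools, since per the labels an uninjected pool came from the same embryos as its injected pool. After each group's mean was taken away, paired arrays correlated at -0.01, 0.08 and 0.11. The members, gene lists and tests were chosen with earlier results of these data known. The result of 1 gene list is not reported here. Genes named by rule were the cyclins A, B, D and E with Cdk1, Cdk2, Cdk4 and Cdk6; the 15 largest changes per direction among called genes above the median brightness of the array; the 10 called in most fits that left out an array; up to 5 called members of each list (or 2 with the smallest p); and those of the difference test. Array number limits the precision. The sensitivity of the results to other settings (the block, the arrays and controls used, normalization, the added constant, dim probe sets, the test and single arrays) is given in the closing section.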

Additional observations from a re-analysis of the deposited data

Results flagged for a closer look

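Sirt5, a mitochondrial deacylase, was the probe set whose change differed between the Ccna2-MO and Oct4-MO embryos by a direct test, with a difference of -1.93 on the log2(value + 16) scale (limma, adjusted p = 0.0238, or 0.397 with the pairs as a block). The probe set is dim and is not the brightest of the gene. It read 2.01, 1.58 and 1.74 in Ccna2-MO pools and 26.3, 40.8 and 32.9 in their uninjected pools, a log2 fold change of -1.46, and 0.47 with Oct4-MO. The uninjected pools of the Oct4 experiment read 1.73 to 2.27, which overlapped the Ccna2-MO values. The 3 uninjected pools of the Ccna2 experiment thus stood apart, and the 2 uninjected groups differed by 1.45 (adjusted p = 0.00413). Groups of 3 arrays are too small for a check of single outlying arrays, which was not made.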

How the results depend on the processing

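Probe sets called numbered 336 (152 higher, 184 lower; 169 genes) as reported. With the replicate pairs as a block they were 124 (51 higher, 73 lower; 71 genes), with only the 6 arrays of the experiment 3 (3 and 0; 2 genes), among the brighter probe sets alone 711 (304 and 407; 399 genes), with array weights 87 (36 and 51; 48 genes), and by a plain unpaired t-test with Benjamini-Hochberg adjustment (an unpaired t-statistic is 1 of the quantities the study ranked genes by, and its ranking was not rerun) 0 (0 and 0; 0 genes), where 4242 had an unadjusted p under 0.05. With a gene's probe sets averaged, 275 genes were called. Leaving out 1 of the 12 arrays gave 17 to 652 probe sets (8 to 272 higher, 9 to 380 lower) and 7 to 337 genes. The difference between knockdowns gave 1 probe set as reported, 0 with the pairs as a block, with no intensity trend, with 64 added and among the brighter probe sets, 53 with all 6 uninjected arrays as controls, and 0 to 3 without an array. The remaining alternatives (all uninjected arrays, 1 or 64 added, no trend, quantile normalization, median centring, a 1.5-fold minimum and, added after seeing the data, the Oct4 experiment's uninjected arrays) kept the count within 1.5 times. The probe sets called were not all the same. Of the 336, 92 were called against the Oct4 experiment's uninjected arrays, 195 against all uninjected arrays and 216 with no trend. With the others listed here 305 to 327 were. With only the 6 arrays 74 of the 76 called named genes missed the threshold, and with the block 44 did; the cause was not tested. Among the 169 called genes signs turned in 3, all against the Oct4 experiment's uninjected arrays: Faap24 (0.26), Katnbl1 (-0.083) and Map3k12 (-0.077). The other signs that turned were of genes that did not pass. Without an array the range was -0.12 to 0.26 for Ccna1, -0.095 to 0.76 for Ccnb2, -0.60 to 1.16 for Ccnb3, -0.037 to 0.12 for Ccnd2, -0.063 to 0.26 for Ccne1 and -0.72 to 0.061 for Cdk1. With 64 added Ccnb3 was -0.20, and with array weights -0.089. With all uninjected arrays Ccna2 was 0.023 and Ccnd2 -0.044. Against the Oct4 experiment's uninjected arrays Ccna2 was 0.16, Ccnd2 -0.13, Cdc25b -0.033, Cdk4 0.19, Tex261 -0.90, Trim26 -0.67 and Ube2c 0.42. With a gene's probe sets averaged Ccna2 was 0.24 and Cdk6 0.43.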

Other observations

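A further list had a share called near that of all genes (0.926% against 0.93%). Of 216 ubiquitin ligases, conjugating enzymes and deubiquitinases 2 rose, Ube2a and Rnf114, both also in the oocyte list, with 27 higher and 23 lower at an unadjusted p under 0.05 and a median of -0.01. Immediate early genes had 21 of 29 above 0 and a median of 0.16 (0.19, 0.14 and 0.34 in the 3 pairs). Egr1, a transcription factor of that list, averaged 635 against 320.2 (log2 fold change 0.96, SE 0.27, adjusted p = 0.117), and Jun averaged 243 against 58.6 (adjusted p = 0.255). A further 92 genes were called only on a probe set that was not their brightest, 30 called probe sets had no gene name and 13 had several. The ratio of the 3' to the 5' control probe set of Gapdh was 2.36 to 3.59 in Ccna2-MO arrays and 3.06 to 3.33 in their uninjected arrays, and the shares of probe sets under 16 were 41.6% to 42.0% and 42.2% to 42.7%. The Actb ratio was lower with Ccna2-MO in each pair (0.44, 0.45 and 0.58 against 0.73, 0.54 and 0.67). The Tfrc ratio was 0.53 to 0.72 against 0.59 to 0.80. For Pcx it ranged from 0.19 to 1.20 and was highest in replicate 2 of both groups. The part of these differences in the results was not tested.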
